A study of Homo sapiens with 8 samples.

Results

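MHC class I molecules are built from a heavy chain and β2-microglobulin, and 7 genes of this system were followed: the heavy chains HLA-B, HLA-C, HLA-E, HLA-F and HLA-G, the light chain B2M, and NLRC5, the transactivator of class I genes. They were taken by gene symbol from a table of 26372 genes, in which all 7 had a row. RNA was measured in BE(2)-M17, an established human neuroblastoma line labelled M17, in 4 untreated libraries and 4 libraries after a 24 h exposure to 10 ng/ml of interferon-γ (IFN-γ), a cytokine released by activated T cells and natural killer cells. Ribosomal RNA was removed from 1 µg of RNA per library. Levels are FPKM (fragments per kilobase of transcript, scaled to the fragments mapped), with 1 value per gene and library. Below, a mean ± SD is over the 4 libraries of a group (n = 4), and a change is the difference in log2(FPKM + 0.1), IFN-γ minus untreated, which understates the change of low genes. Whether replicates are separate cultures is not given, so p-values measure the spread between libraries, which may be technical.

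Class I molecules carry peptides from proteins made inside the cell to its surface, where CD8 T cells read them and natural killer cells sense their presence. HLA-B and HLA-C are classical, highly polymorphic heavy chains. HLA-E, HLA-F and HLA-G are the non-classical ones, of which HLA-E presents mainly signal peptides of other class I chains to NKG2 receptors and HLA-G is known from the placenta. A heavy chain without B2M is not carried stably to the cell surface. NLRC5, a member of the NLR family like the class II transactivator CIITA, has no DNA-binding domain of the usual kind and joins RFX, CREB/ATF and NF-Y proteins on class I promoters. Neurons and neuroblastoma cells are known for low class I expression, and IFN-γ is known to raise it, with IRF1 among the factors involved.

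The promoters are shown because class I genes are textbook targets of an interferon-responsive element followed by the elements that the NLRC5 partners bind. RefSeq promoter windows on GRCh38.p14 were matched for 5 of the 7 genes (HLA-B, HLA-C, HLA-F, HLA-G and B2M), and HLA-E and NLRC5 had none. These are sequences of the reference genome, not of the cell line. Each line below gives the 180 bases before the RefSeq start, 5′ to 3′ on the gene's strand, with matched letters in capitals. Transcript positions further below are from GENCODE, whose starts differ. The windows of HLA-B, HLA-F, HLA-G and B2M therefore reach into those transcripts. The windows lie at chr6:31357180-31357359 (HLA-B, reverse strand), chr6:31272093-31272272 (HLA-C, reverse strand), chr6:29723254-29723433 (HLA-F, forward strand), chr6:29827645-29827824 (the third of 3 annotated HLA-G starts, forward strand) and chr15:44711337-44711516 (B2M, forward strand).
HLA-B: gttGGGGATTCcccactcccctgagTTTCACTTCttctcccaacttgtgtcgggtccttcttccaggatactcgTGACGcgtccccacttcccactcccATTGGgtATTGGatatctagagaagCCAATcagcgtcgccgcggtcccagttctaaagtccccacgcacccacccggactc
HLA-C: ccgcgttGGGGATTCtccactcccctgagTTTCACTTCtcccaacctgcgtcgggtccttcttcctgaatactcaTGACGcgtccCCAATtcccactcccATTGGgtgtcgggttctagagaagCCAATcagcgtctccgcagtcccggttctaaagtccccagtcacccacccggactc
HLA-F: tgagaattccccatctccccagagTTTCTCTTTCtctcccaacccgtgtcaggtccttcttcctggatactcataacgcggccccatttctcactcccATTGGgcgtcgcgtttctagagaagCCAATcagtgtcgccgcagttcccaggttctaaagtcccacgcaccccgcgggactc
HLA-G: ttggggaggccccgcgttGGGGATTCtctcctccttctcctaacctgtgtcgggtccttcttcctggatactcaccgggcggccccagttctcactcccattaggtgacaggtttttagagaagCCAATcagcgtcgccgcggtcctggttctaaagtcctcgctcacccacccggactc
B2M: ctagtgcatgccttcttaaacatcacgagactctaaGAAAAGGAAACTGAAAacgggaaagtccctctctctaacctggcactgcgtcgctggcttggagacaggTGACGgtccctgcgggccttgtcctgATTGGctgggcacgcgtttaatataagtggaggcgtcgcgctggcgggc

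Both strands of the 250 bases before each start were searched for 6 strings of letters. An IRF-type element was written as GAAANNGAAA or GAANNGAAA, and these are found in 3.02% and 6.56% of 35116 RefSeq promoter windows of the same length. HLA-B and HLA-C each held GAANNGAAA once (TTTCACTTC on the printed strand), HLA-F held GAAANNGAAA once (TTTCTCTTTC on the printed strand), and B2M held it in 2 overlapping copies (GAAAAGGAAA and GAAACTGAAA). TGACG, the core of the CREB/ATF site, occurs in 21.2% of windows and was found in HLA-B, HLA-C and B2M. CCAAT, the NF-Y motif, occurs in 32.0% of windows and was found in all 5 genes (in HLA-G at the third start). GGGGATTC, a κB-like string found in 0.772% of windows, was present in HLA-B, HLA-C and HLA-G. TTCNNNGAA, the GAS element found in 6.57% of windows, was in none of these windows. The HLA-G window thus held a CCAAT and a κB-like match without a match to either IRF string or TGACG. A match describes letters only, and the lack of one says only that these letters are not in the window.

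The deposited values corresponded to about 13.4 to 19.3 M fragments per library, estimated from the steps between low FPKM values. The labels give a target of 100 M reads per library, and the steps were searched only over a range that leaves out that depth. Fragment numbers and counting variances given here rest on this estimate. Between libraries of a group, Pearson's r of log2 values across genes was at least 0.983. IFN-γ replicate 4 stood apart: pairs of libraries that included it had at least 4.95 times the counting variance, against at most 2.14 for all other pairs of a group. The limma fit tested 13598 genes, those whose mean reached 0.5 FPKM, and 13.3% passed higher and 9.05% lower at a Benjamini-Hochberg adjusted p of 0.05 (1809 and 1230 genes). The split between rises and falls varied with the scaling used. With quantile normalization there were 1472 higher and 2570 lower, rescaling to TPM gave 9442 higher and 20 lower with the median of all genes moved to 0.79 (log2), and TPM without short RNA genes gave 1142 and 1767. Without IFN-γ replicate 4 the counts were 2157 and 1698. The line was checked by its markers. Among 12 neuroblastoma identity genes HAND2 was at 307 ± 2.62 and PHOX2A at 151 ± 2.34 FPKM in untreated cells. Of 14 leukocyte markers 5 were listed at 0 in all libraries, CD3D and CD3E among them, beside 6347 of the 26372 genes in the table. The summed level of the 14 was 1.86 to 2.49 FPKM untreated and 1.64 to 2.24 with IFN-γ. Of 7 stromal and endothelial markers, DCN was at 140 ± 4.40 and 143 ± 22.3 FPKM, and PDGFRB rose from 8.20 ± 0.442 to 21.0 ± 1.52. Their summed level was 145 to 155 FPKM untreated and 153 to 196 with IFN-γ, and the part of these markers in the results below was not tested.

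All 4 heavy chains with reads, B2M and NLRC5 rose with IFN-γ, by amounts that ran from 6.74-fold for B2M to 502-fold for HLA-B as ratios of mean FPKM. HLA-G was listed at 0 in every library. Of the 7 genes, 6 were tested, and 5 of these reached the filter of 0.5 FPKM on their untreated values alone. HLA-B entered the test through its IFN-γ values and so had to differ. All 6 passed higher, where the background is 13.3% of genes, and in all 6 the 4 IFN-γ libraries lay above the 4 untreated ones, which held for 15.4% of the genes tested (the reverse held for 12.9%). Among 13598 genes, the changes of HLA-B, HLA-E, NLRC5, HLA-C, HLA-F and B2M ranked 14, 41, 81, 100, 106 and 164 from the largest rise, and called rises of at least 4-fold made up 1.45% of the genes tested. In whole-cell RNA, more RNA per cell and more cells that express a gene cannot be told apart.

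**Figure D1:**
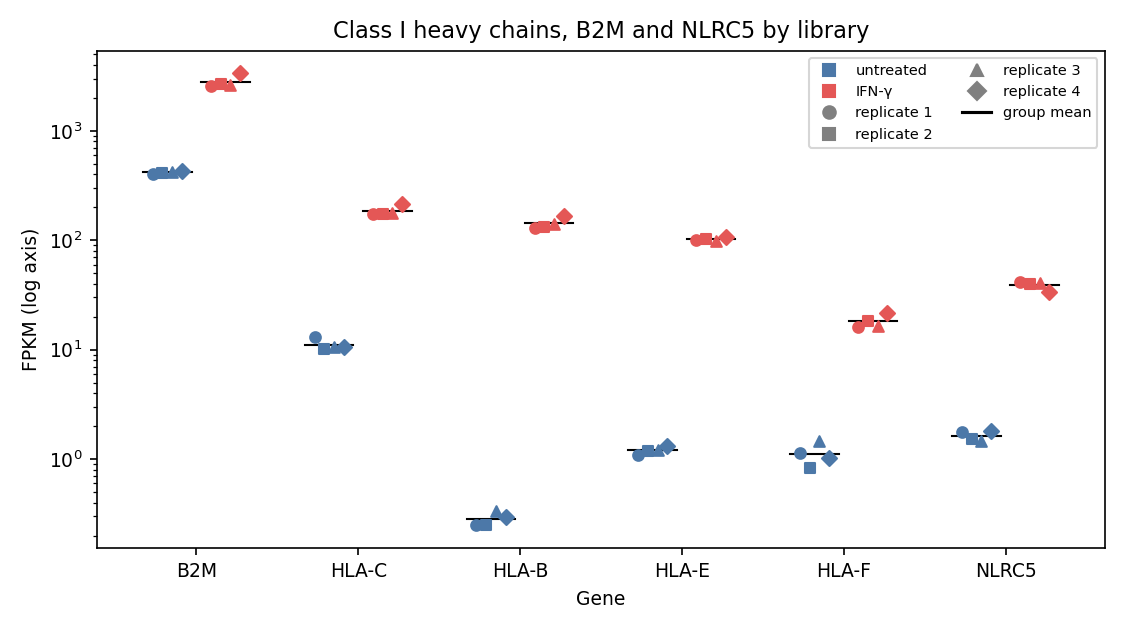
FPKM (log axis) of 6 genes in each of the 8 libraries, with untreated libraries in blue, IFN-γ libraries in red, marker shapes for replicates and black lines for group means. For each gene the red points lie above all blue points, B2M is highest in both groups, and HLA-B moves from the lowest place to below B2M and HLA-C.

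HLA-B, a classical heavy chain, was nearly silent in untreated cells. Its gene lies on chromosome 6, where the longest annotated coding transcript runs from 31353872 to 31357187 on the reverse strand of GRCh38 with 8 exons. HLA-B stood at 0.252, 0.249, 0.339 and 0.294 FPKM untreated, and its values with IFN-γ were 129, 133, 140 and 167. The untreated values rest on few reads: by transcript length and estimated depth they stand for about 6.28 to 7.98 fragments per library, against 2756 to 4994 with IFN-γ. The 2 groups were separated by far more than their spread, with the lowest IFN-γ value 382 times the highest untreated one. The change was 8.54 (SE 0.10, 95% interval 8.32 to 8.76, limma adjusted p = 1.8e-12). It was 6.80 with a pseudocount of 1, 8.93 with 0.01, and 9.28 in TPM, where the median of all genes moves up. By mean level HLA-B ranked 13489 of 13598 tested genes in untreated cells and 463 with IFN-γ.

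HLA-C, the classical chain that also serves as a ligand of KIR receptors on natural killer cells, had the highest untreated level of the 5 heavy chains. It is read from 31268749 to 31272086 on the reverse strand of chromosome 6, with 8 exons. Untreated libraries held 13.1, 10.2, 10.6 and 10.6 FPKM, and IFN-γ libraries 174, 175, 177 and 215. Untreated replicate 1 was the highest of its group, as was replicate 4 with IFN-γ, and the groups did not overlap. The change was 4.04 (SE 0.09, limma adjusted p = 2.8e-10), or 16.6-fold as a ratio of means. From a level reached by about 249 to 325 fragments per untreated library, HLA-C rose to rank 359 among the 13598 genes.

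HLA-E, the ligand of the CD94/NKG2 receptors, changed most after HLA-B. Its transcript spans 30489467 to 30494205 on the forward strand of chromosome 6 with 8 exons. HLA-E was at 1.10, 1.19, 1.22 and 1.33 FPKM untreated and at 101, 104, 99.2 and 107 with IFN-γ, the tightest IFN-γ values of the 6 genes, with a coefficient of variation of 3.50%. Its change of 6.30 (SE 0.06, limma adjusted p = 5.4e-13) corresponds to an 85.0-fold ratio of means. The 4 libraries of each group lay close together and the groups did not overlap.

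HLA-F, a non-classical chain that can also occur without bound peptide, was the least abundant of the detected heavy chains with IFN-γ. Its longest coding transcript runs from 29723279 to 29727296 on the forward strand of chromosome 6 with 7 exons. HLA-F stood at 1.13, 0.823, 1.46 and 1.03 FPKM untreated and at 16.0, 18.4, 16.6 and 21.8 with IFN-γ. Its untreated libraries varied most among the 6 genes, with a coefficient of variation of 24.0% on about 25.1 to 36.4 fragments, and still did not reach the IFN-γ range. The change was 3.93 (SE 0.15, limma adjusted p = 2.4e-08), 16.4-fold as a ratio of means. HLA-F-AS1, annotated over the same place, rose as well, from 0.276 ± 0.169 to 2.53 ± 0.724 FPKM (change 2.86, SE 0.31), and the library kit does not mark strand, so reads of HLA-F and HLA-F-AS1 cannot be told apart where they overlap.

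HLA-G, the chain known from the placenta, was listed at 0 FPKM in all 4 untreated and all 4 IFN-γ libraries. It lies at 29826979 to 29831122 on the forward strand of chromosome 6, in the longest coding transcript with 8 exons. It did not pass the filter and no fold is given, and a value of exactly 0 in such a table can also be a failed estimate. Of the 4 other heavy chains none was at 0 in any library, although HLA-B came to fewer than 8 fragments in each untreated one.

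B2M, the invariant light chain of class I molecules, had the highest level of the 7 genes before and after treatment. Its transcript on chromosome 15 runs from 44711487 to 44718877 on the forward strand with 4 exons. B2M was at 403, 410, 421 and 429 FPKM untreated, with a coefficient of variation of 2.83%, and its values with IFN-γ were 2566, 2661, 2633 and 3345. Replicate 4 was the highest of the IFN-γ libraries, and the groups did not overlap. The change was 2.74 (SE 0.09, 95% interval 2.54 to 2.95, limma adjusted p = 5.8e-09), a 6.74-fold ratio of means. B2M ranked 150 of 13598 genes by mean level in untreated cells and 9 with IFN-γ.

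NLRC5, the transactivator, rose from a low level. Its transcript is long (6822 nt, 49 exons, chromosome 16 from 56989498 to 57083524, forward strand). The untreated level was measured on more reads than those of HLA-B, HLA-E and HLA-F, with both a longer transcript and a higher mean FPKM than each of them. NLRC5 was at 1.77, 1.52, 1.46 and 1.81 FPKM untreated, about 151 to 194 fragments per library, and at 41.9, 40.0, 40.8 and 33.3 with IFN-γ. Replicate 4, the highest of the IFN-γ libraries for the heavy chains and B2M, was the lowest for NLRC5. The change was 4.49 (SE 0.09, 95% interval 4.29 to 4.70, limma adjusted p = 1.4e-10), 23.8-fold as a ratio of means.

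**Figure D2:**
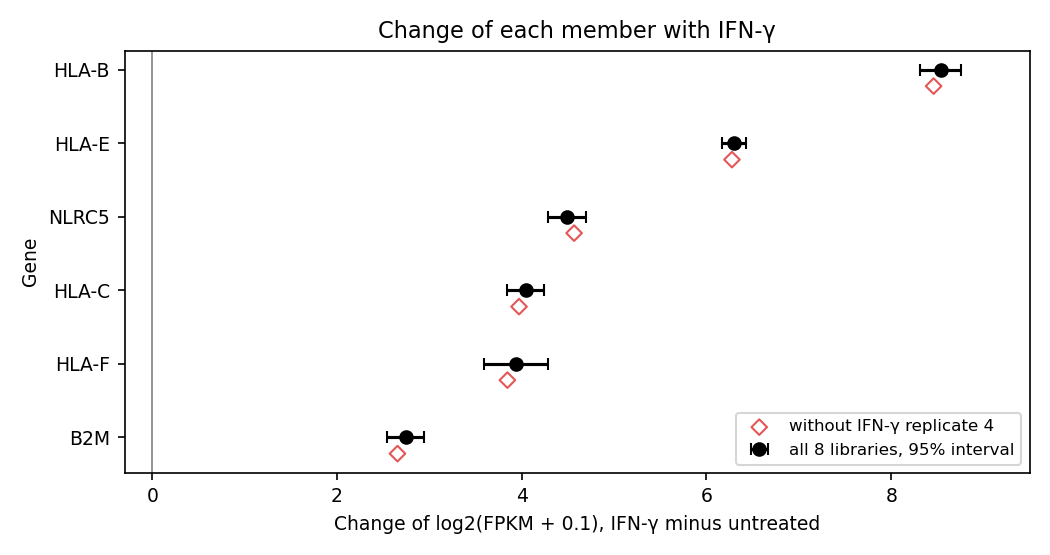
Change of log2(FPKM + 0.1) with IFN-γ for each tested gene, as black points with 95% intervals from limma over all 8 libraries, and as red diamonds without IFN-γ replicate 4. Estimates run from 2.74 for B2M to 8.54 for HLA-B, and no diamond lies more than 0.1 from its point.

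IFN-γ replicate 4 exceeded the mean of the other 3 IFN-γ libraries by 1.24 times for HLA-B, 1.22 for HLA-C, 1.28 for HLA-F, 1.28 for B2M and 1.06 for HLA-E, and stood at 0.815 times that mean for NLRC5. Among 11965 genes with at least 1 FPKM in every IFN-γ library the median of this ratio was 1.01, and 7.40% of genes lay at or above the ratio of B2M and 12.0% at or below that of NLRC5. In that library the ratio fell with transcript length over all genes. Its median was 1.18 for 1991 genes whose longest transcript is under 2000 nt and 0.908 for 2249 genes with at least 6000 nt. HLA-B, HLA-C and HLA-F belong to the first class, with longest transcripts of 1547, 1880 and 1635 nt, HLA-E (2601 nt) and B2M (2403 nt) to the next, and NLRC5 (6822 nt) to the last. The part of transcript length in the values of replicate 4 was not tested. Without that library the means with IFN-γ were 134 ± 5.60 FPKM for HLA-B, 175 ± 1.29 for HLA-C, 101 ± 2.19 for HLA-E, 17.0 ± 1.22 for HLA-F, 2620 ± 48.7 for B2M and 40.9 ± 0.957 for NLRC5 (SD over 3 libraries). The changes without it were 8.46, 3.97, 6.28, 3.85, 2.66 and 4.57 in the same order, and all 6 passed the test.

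The order of levels shifted with treatment. In untreated cells mean FPKM fell from B2M over HLA-C, NLRC5, HLA-E and HLA-F to HLA-B, and only the neighbours HLA-E and HLA-F overlapped, at 1.10 to 1.33 and 0.823 to 1.46. With IFN-γ the order was B2M, HLA-C, HLA-B, HLA-E, NLRC5 and HLA-F, with no overlap between neighbours. HLA-B thus went from the lowest place to above HLA-E, and HLA-C stayed the most abundant of the heavy chains followed here.

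The changes of the other 5 genes were set against that of HLA-B by each library's log2 ratio to HLA-B. In untreated cells HLA-C stood at 39.3 times the mean FPKM of HLA-B, and with IFN-γ at 1.30 times. For HLA-E the ratio of mean levels went from 4.27 to 0.722, for HLA-F from 3.92 to 0.128, for NLRC5 from 5.77 to 0.274, and for B2M from 1467 to 19.7. On the log2 scale with the pseudocount the ratios changed by -4.49 for HLA-C, -2.24 for HLA-E, -4.60 for HLA-F, -4.04 for NLRC5 and -5.79 for B2M. In each of the 5 comparisons all 4 IFN-γ libraries lay below all 4 untreated ones. By an exact permutation test, two-sided, p was 0.0286 for each, which is the smallest p that 70 arrangements allow, and adjusted p was 0.0286 over the 5 ratios. HLA-B was taken as the reference with its large change already known and entered the fit only through its IFN-γ values, so these ratios describe the 8 libraries, and their p-values give no independent support for a difference between the genes. The size of each ratio change also rests on the few HLA-B fragments in untreated cells.

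As a description, the FPKM of HLA-B, HLA-C, HLA-E and HLA-F were summed per library, with other class I genes not included. The sum was 13.8 ± 1.35 untreated and 449 ± 41.8 with IFN-γ. HLA-C made up 77.9 to 84.1% of it in untreated libraries and 40.7 to 42.0% with IFN-γ. The share of HLA-B was 1.61 to 2.48% untreated and 30.8 to 32.7% with IFN-γ, and that of HLA-E went from 7.05 to 9.99% to 21.0 to 24.1%. HLA-F held 6.61 to 10.7% untreated and 3.81 to 4.28% with IFN-γ. B2M stood at 30.5 ± 3.26 times the sum of the 4 chains in untreated cells and at 6.23 ± 0.219 times with IFN-γ. Light chain RNA exceeded the summed RNA of these heavy chains in every library, and the excess was smaller with IFN-γ in all 4.

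**Figure D3:**
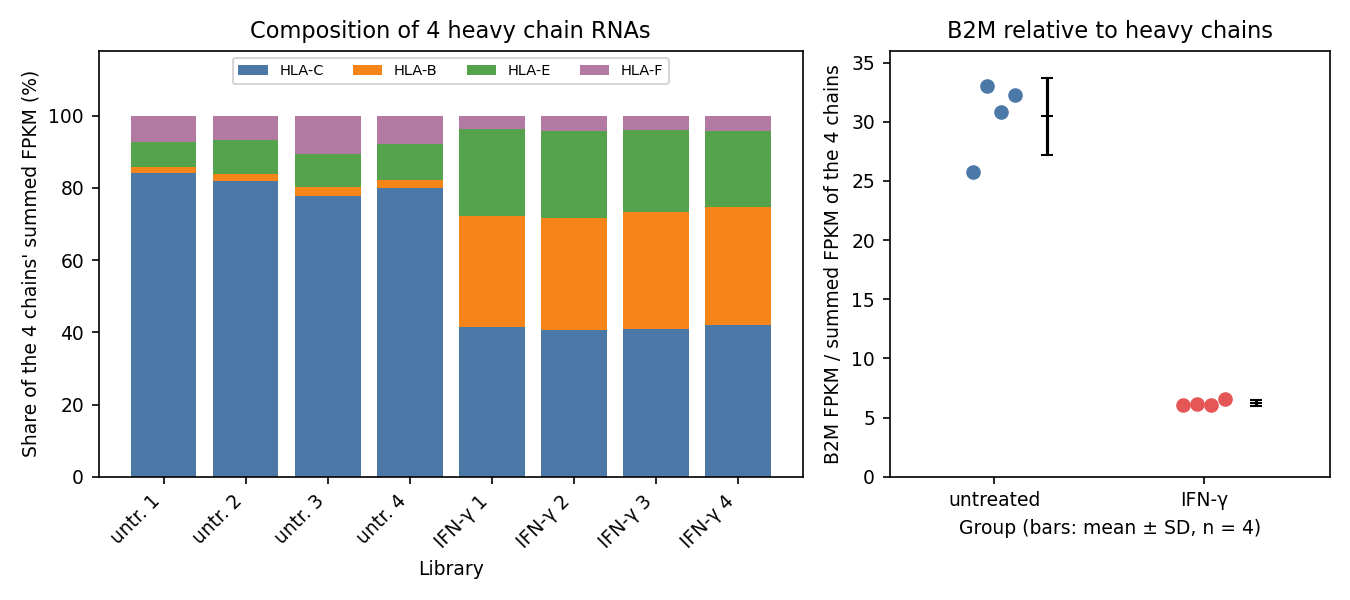
Left, share of HLA-C, HLA-B, HLA-E and HLA-F in their summed FPKM, with a bar for each library. Right, B2M FPKM divided by that sum, with points for libraries and bars for mean ± SD (n = 4). HLA-C holds at least 77.9% of the sum in untreated libraries and at most 42.0% with IFN-γ, and the B2M ratio goes from 30.5 to 6.23.

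Heavy chain genes are similar in sequence, which bears on how reads are divided among them. In GENCODE release 29, no exact 150-nt stretch of the longest coding transcript of any of the 7 genes occurs in a transcript of another gene, and read length was 150 nt. For exact 75-nt stretches the share found in other genes was 2.66% for HLA-G, 2.02% for HLA-E and 1.98% for HLA-C, and none was found for HLA-B, HLA-F, B2M and NLRC5. At 50 nt the shares were 2.54% for HLA-B, 6.79% for HLA-C, 5.13% for HLA-E, 1.70% for HLA-F and 4.38% for HLA-G. These counts take the reference alleles. The alleles of BE(2)-M17 differ from them in ways not analysed here, so the division of FPKM among heavy chains is uncertain, while B2M and NLRC5 had no shared stretch at any of these lengths.

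The genes whose profile over the 8 libraries was nearest, by Euclidean distance of log2(FPKM + 0.1) among all genes tested, were IFIT3, IRF1 and IDO1 for HLA-B (distances 1.11, 1.77 and 1.82). IFIT3 went from 0.316 ± 0.0472 to 105 ± 1.96 FPKM. PARP14 was nearest to HLA-E at a distance of 0.729, with 1.02 ± 0.0818 and 88.9 ± 4.14 FPKM, followed by SERPING1 and IRF1. NLRC5 was closest to OAS1 (0.977), at 2.20 ± 0.331 and 39.3 ± 2.98 FPKM, then to the immunoproteasome subunit PSMB8 (1.12) and to CX3CL1 (1.38). For HLA-C the nearest were SAMHD1, OAS3 and MT2A (1.96, 1.98 and 2.02), and for HLA-F they were CSF1, TRIM21 and VAMP5 (1.06, 1.16 and 1.19). B2M had no close match: TMSB10, SCARNA12 and TUBA1A lay at 3.17, 3.57 and 3.62.

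The factors that act upstream of class I genes divided into those that rose and those that changed little. Of 6 activators 4 rose and none fell, where 13.3% of all genes tested passed higher and 9.05% lower. IRF1, which binds interferon-responsive elements, rose from 0.584 ± 0.0404 to 125 ± 2.14 FPKM, and IRF9 from 4.64 ± 0.605 to 43.9 ± 2.66. The NF-κB subunit genes RELA, at 17.3 ± 1.33 and 17.0 ± 0.659, and NFKB1, at 9.03 ± 0.246 and 9.54 ± 0.489, did not pass the test. Of the 8 genes for partners of NLRC5 on class I promoters, 1 rose and 1 fell, near the shares over all genes tested. The list's median change was 0.047 beside -0.0047 for all genes tested. RFX5, the RFX subunit that binds the X box, rose from 23.0 ± 0.379 to 32.2 ± 1.25 FPKM (change 0.48, limma adjusted p = 9.8e-06). NFYA, the NF-Y subunit that contacts the CCAAT box, fell from 14.8 ± 0.478 to 12.4 ± 0.141 (change -0.26, limma adjusted p = 0.00128), a direction that turns in TPM (0.54, adjusted p = 0.103), where the median of all genes moves up. NFYC was at 20.6 ± 0.899 and 22.2 ± 1.71 FPKM and CREB1 at 14.4 ± 0.160 and 15.4 ± 0.472, neither passing, although CREB1 passed without IFN-γ replicate 4 (0.11, adjusted p = 0.0253). In TPM, NFYC and CREB1 both passed higher (adjusted p = 0.017 and 0.0179), as did RELA and NFKB1 (0.0282 and 0.0195), with changes of 0.78 to 0.91 near that of the median gene.

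Most genes that make and load class I peptides rose with them, where 13.3% of all genes tested passed higher and 9.05% lower. Of 9 genes of peptide transport, trimming and loading 8 rose and none fell (median change 2.36; CALR, at 0.27 with limma adjusted p = 0.00633, lost its call with quantile normalization, at 0.12 with 0.0869), with 2 entering the test only through their IFN-γ values, and of 5 immunoproteasome and PA28 genes 5 rose (median 3.37), 1 of them in that way. Within the peptide transport, trimming and loading list the largest changes were those of TAP1, from 0.131 ± 0.0636 to 353 ± 18.5 FPKM, ERAP2, an aminopeptidase of the endoplasmic reticulum, from 0.0833 ± 0.0653 to 3.68 ± 0.193, and TAP2, the partner of TAP1 in the peptide transporter, from 4.21 ± 0.269 to 66.0 ± 0.146. Among the immunoproteasome genes, PSMB9 was listed at 0 in the 4 untreated libraries and reached 41.4 ± 5.04, PSMB8 rose from 1.26 ± 0.333 to 39.8 ± 3.34 and PSMB10 from 7.41 ± 1.37 to 76.8 ± 6.0. CANX, the chaperone calnexin that holds new heavy chains, did not pass, at 233 ± 1.56 and 240 ± 8.40 FPKM (it passed higher in TPM, at 0.85 with adjusted p = 0.0198).

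**Figure D4:**
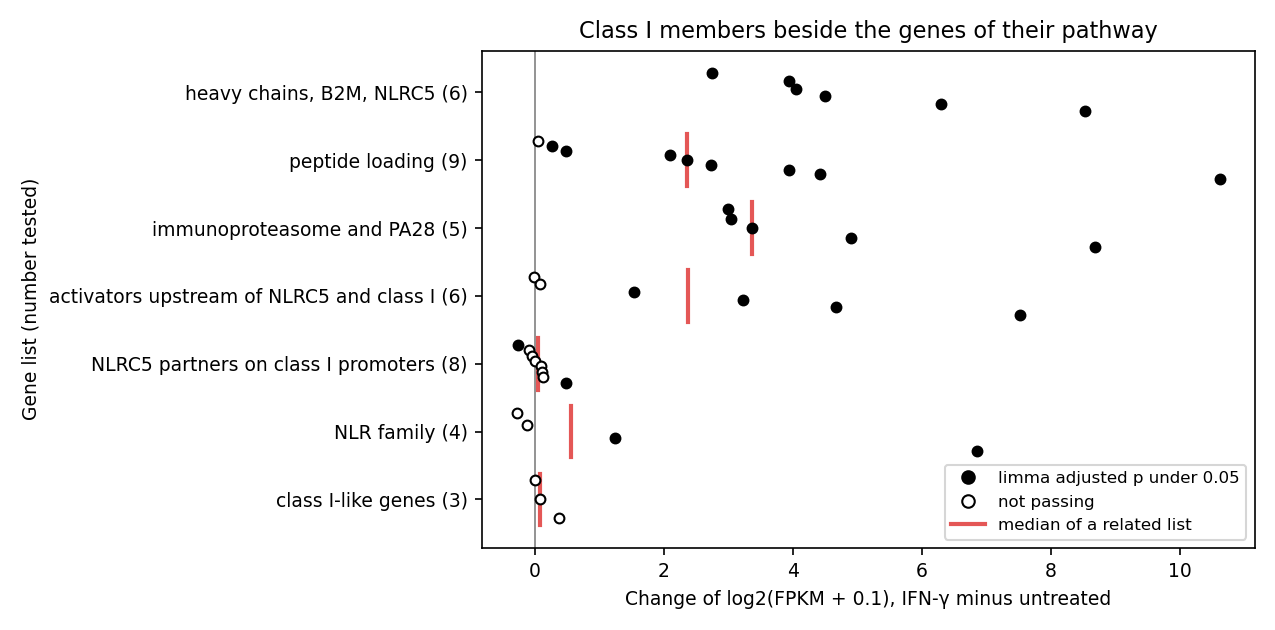
Change of log2(FPKM + 0.1) with IFN-γ for the tested heavy chain, B2M and NLRC5 genes and for 6 lists of related genes, with the number tested in parentheses. Filled points passed limma at adjusted p under 0.05, open points did not, and red lines are the medians of the related lists, which run from 3.37 for the immunoproteasome and PA28 genes to 0.047 for the NLRC5 partners.

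Class I-like genes, whose products share the fold of the heavy chains, mostly had values near 0 in these cells. The 18 class I-like genes listed include the stress ligands of the MIC and ULBP families and the lipid-presenting CD1 molecules. Of these 18, 5 were listed at 0 in all libraries, beside 6347 of the 26372 genes in the table. Enough signal to be tested was found for 3, beside 13598 of the 26372. Of the 3, 0 passed limma at adjusted p 0.05 and 1 at an unadjusted p of 0.05. Over all genes tested 13.3% passed higher and 9.05% lower, so 0 of 3 says little about these genes. FCGRT, the heavy chain of the neonatal Fc receptor, which also pairs with B2M, was at 7.20 ± 0.488 and 7.19 ± 0.835 FPKM (change -0.0062, SE 0.09). PROCR was at 1.79 ± 0.216 and 2.36 ± 0.283 (change 0.38, limma adjusted p = 0.0523), which passed under 5 alternatives such as a pseudocount of 1 (adjusted p = 0.0485), and FCGRT passed in TPM alone (0.79, adjusted p = 0.0282). ULBP3 was at 1.47 ± 0.623 and 1.55 ± 0.520, passing in TPM alone (adjusted p = 0.0347). MICA and MICB, named after their values were seen because MICA lies 42.6 kb from HLA-B, were at most 0.0488 and 0.0261 FPKM untreated and at 0.0745 ± 0.0714 and 0.352 ± 0.114 with IFN-γ. Both lay under the filter. In the alternative without a filter MICB passed higher (change 1.98, limma adjusted p = 0.000191) and MICA did not pass (0.57, adjusted p = 0.254).

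In the NLR family to which NLRC5 belongs, 4 of 12 other genes listed were tested and 2 rose. The share of all genes tested that passed higher was 13.3%. CIITA, the class II transactivator, went from 0.0293 ± 0.0160 to 14.9 ± 2.27 FPKM, entering the test through its IFN-γ values, and NOD1, a sensor of bacterial cell wall fragments, rose from 2.57 ± 0.319 to 6.21 ± 0.888 (change 1.23). NAIP, at 4.47 ± 0.199 and 3.73 ± 0.704, and NLRC3, at 0.706 ± 0.0704 and 0.656 ± 0.185, did not pass. Compared with the 12 listed genes, NLRC5 had the highest level with IFN-γ, at 39.0 ± 3.87 FPKM.

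Among pseudogenes and noncoding RNAs of the class I region, 10 of 20 listed symbols had a row and 4 were tested, of which 3 rose. Over all genes tested, 13.3% passed higher and 9.05% lower. HCP5 rose from 0.325 ± 0.0165 to 8.73 ± 0.591 FPKM, HLA-F-AS1 as given above, and the pseudogene HLA-L from 0.666 ± 0.161 to 1.38 ± 0.156 (change 0.97, limma adjusted p = 0.00315), while HCG18 was at 15.5 ± 0.392 and 14.1 ± 1.12 and passed lower with quantile normalization alone (adjusted p = 0.034). HCP5 and HLA-F-AS1 entered the test through their IFN-γ values, and reads of HLA-L may come from similar class I genes. Within 100 kb of any of the 7 genes, 27 other genes of the table were annotated and 11 were tested. Of these 6 rose and none fell, beside 13.3% and 9.05% of all genes tested, with a median change of 0.14. Beside HCP5 and HLA-F-AS1 those that rose included TRIM69, 10.1 kb from B2M. TRIM69 was at 0.374 ± 0.148 FPKM untreated and 1.68 ± 0.495 with IFN-γ (change 1.91, SE 0.28). Like HCP5 and HLA-F-AS1, it entered the test through its IFN-γ values and so had to differ. Within 100 kb of NLRC5, HERPUD1 and FAM192A rose, with changes of 0.23 and 0.22. HERPUD1 (limma adjusted p = 0.0489) lost its call under 14 alternatives, without IFN-γ replicate 1, 3 or 4 or any untreated library among them (adjusted p = 0.065 to 0.115), and FAM192A (0.00268) in TPM without short RNA genes (0.08). Within 100 kb of HLA-E 3 genes were tested, named here after their values were seen, beside an HLA-E level that went from 1.21 ± 0.0933 to 103 ± 3.60 FPKM. PRR3, 62.7 kb away, rose from 18.9 ± 0.573 to 21.0 ± 0.824 FPKM (change 0.14, limma adjusted p = 0.0366) and lost its call under 11 alternatives (adjusted p = 0.0539 to 0.598), those without any 1 untreated library or without IFN-γ replicate 1, 2 or 3 among them. GNL1 was at 5.76 ± 0.162 and 5.88 ± 0.107 FPKM and did not pass, except higher in TPM (adjusted p = 0.025). ABCF1 was at 41.7 ± 0.701 and 40.8 ± 0.766 and did not pass, except lower with quantile normalization (-0.13, adjusted p = 0.0283) and higher in TPM (0.77, 0.0291).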

How the data were processed

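The 7 genes, the gene lists, the tests and the alternatives were chosen with earlier results of these data known. The deposited table holds FPKM per gene for each of the 8 libraries. Per the submitters' processing notes, the authors used TopHat2 and Cuffdiff with hg38, with versions and options not given in the sources used here, as are the annotation and any scaling between libraries. FPKM is a relative measure, and very abundant RNAs can lower other values if they enter its total. Groups follow the treatment label, and replicate numbers follow the titles.

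Groups were compared by limma 3.58.1 in R 4.3.3 with a mean-variance trend on log2(FPKM + 0.1), two-sided, over the 13598 genes whose mean reached 0.5 FPKM, with Benjamini-Hochberg adjustment over all of them and a threshold of 0.05. Ratios to HLA-B were tested by an exact permutation test over libraries (scipy 1.17.1). The fit was tested on simulated data. Genes named were the 7, from each list up to 3 passing genes with the largest change and up to 2 not passing with the highest mean, 3 nearest profiles per gene, and up to 5 passing neighbours. Some genes of the lists are counted but not reported by name here. Positions and transcripts came from GENCODE release 29 on GRCh38, in which 89.96% of symbols matched a single gene, and promoters from RefSeq. The gene span of HLA-B in that release reaches over HLA-C, so distances to its neighbours are from that span. Alternatives were pseudocounts, filters, scalings, variance models, the replicate block and each library left out. No 2 libraries of a group differed by less than sampling noise (1.61 to 6.03 times the counting variance over 12 pairs).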

Additional observations from a re-analysis of the deposited data

Results flagged for a closer look

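In 12 groups of 4 values (6 genes in 2 groups) a library was looked for whose gap to the nearest of the others exceeded Dixon's 95% critical share of the group's range, which chance gives in about 1 in 20 groups. There were 3 such values. HLA-C in untreated replicate 1 was at 13.1 FPKM, where the other 3 lay between 10.2 and 10.6. HLA-C in IFN-γ replicate 4 was at 215 FPKM, where the others were at 174, 175 and 177, and B2M in the same library was at 3345, where the others were between 2566 and 2661. Both values in IFN-γ replicate 4 belong to the library that stood apart over all genes.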

How the results depend on the processing

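The changes of HLA-B, HLA-C, HLA-E, HLA-F, B2M and NLRC5 kept their direction and passed the test in all 114 combinations of gene and alternative (19 alternatives), with a highest adjusted p of 2.6e-06. Their ranges were 6.80 to 9.28, 3.94 to 4.85, 5.55 to 7.09, 3.19 to 4.71, 2.65 to 3.55 and 3.92 to 5.29, and all 6 upper ends came from TPM. Counts over all genes moved with the scaling: 2570 genes were lower with quantile normalization, 9442 were higher and 20 lower in TPM, and 1142 were higher in TPM without short RNA genes.

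The drops of the ratios to HLA-B kept their direction throughout. With each library left out in turn they were -4.58 to -4.37 for HLA-C, -2.30 to -2.18 for HLA-E, -4.68 to -4.54 for HLA-F, -5.85 to -5.76 for B2M and -4.16 to -3.89 for NLRC5. With 3 libraries against 4 the exact permutation test cannot go below 0.0571, so none passed there by the size of the design.

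The replicate numbers are shared by the groups in the titles, and whether a shared number marks a pair is not given. Deviations of same-numbered libraries from their group means had an r across genes of -0.0275 to 0.079. For replicates 2 and 4 this r (0.079 and 0.0614) was above those with other numbers (at most -0.0164 and 0.0195). For replicates 1 and 3 it lay within the range of the others. With the replicate block, 1639 genes were higher and 1017 lower, all 6 tested class I genes passed, and the changes were unaltered (8.54 for HLA-B and 2.74 for B2M). The depth limits the untreated HLA-B level most, at fewer than 8 fragments per library by the estimated depth.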
